A study of Homo sapiens with 20 samples.

Results

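Cytochrome c and the proteins that meet it in the cytosol were followed at the mRNA level in human embryonic kidney HEK293 cells made to express a tagged ZFP36, an RNA-binding protein also known as tristetraprolin. The set comprised 8 genes chosen by name, with earlier results of these data known: CYCS, APAF1, CASP9, CASP8, CASP2, XIAP, BIRC2 and DIABLO. Every probe set annotated to exactly 1 of them was taken, which gave 22 of the 38070 probe sets on the array that name a single gene. Of these, 16 had a mean log2 value above 4.5 in at least 1 group and were tested together with all other such probe sets (18639 in all), and the other 6 lay under that level in every group.

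Cytochrome c carries electrons between respiratory complexes III and IV in the mitochondrial intermembrane space. When the outer mitochondrial membrane is opened during apoptosis, cytochrome c reaches the cytosol and binds APAF1, which assembles into the apoptosome and activates the initiator caspase, caspase-9. Inhibitor of apoptosis proteins restrain this step, XIAP by binding caspases directly, and DIABLO, also known as Smac, leaves the mitochondrion with cytochrome c and relieves that inhibition. ZFP36 binds AU-rich elements in 3′ untranslated regions (UTRs) and promotes decay of the mRNAs that carry them.

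Expression was measured on 20 Affymetrix Human Genome U133 Plus 2.0 arrays in 4 groups of 5. Induced cells were a stable Flp-In T-REx line with a doxycycline-inducible EGFP-ZFP36 transgene given 1 µg/ml doxycycline for 16 h, and mock-induced cells were the same line given water. Parental HEK293 cells without the transgene received doxycycline in the third group and water, called vehicle, in the fourth. Parental doxycycline arrays thus carry the drug but not the fusion protein. Neither labels nor methods state whether the parental cells were the Flp-In T-REx host line. According to the study's methods all cells passed a fluorescence sorter, with EGFP-positive cells kept from induced cultures and fluorescent cells removed from mock-induced ones, and the replicates were made on separate days. The same methods describe sparser cultures with more floating and rounded cells after doxycycline, so cell density and cell rounding moved with induction in the EGFP-ZFP36 line, and their part in the results was not tested.

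ZFP36 mRNA itself read 5.42 ± 0.49 in induced and 5.36 ± 0.43 in mock-induced arrays, and in the parental arrays 3.76 ± 0.58 with doxycycline and 3.45 ± 0.56 with vehicle (log2, mean ± SD, n = 5 each). It is not known from the labels, files or methods whether the only ZFP36 probe set matches the transgene's transcript, so this level does not check the induction. Of 4 genes known from HEK293 cells that have a probe set, VIM and NEFL (vimentin and a neurofilament) lay above 4.5 in all 4 groups. The other 2 did not: NEFM, a second neurofilament gene, averaged 5.81 in induced and 3.87 in mock-induced arrays and, in parental arrays, 12.29 with doxycycline and 12.27 with vehicle, and PAX2 exceeded 4.5 only in induced arrays (4.86). No blood cell marker (0 of 7) and no endothelial marker (0 of 5) exceeded 4.5. Of 6 fibroblast genes, COL1A1 and COL3A1 did in every group, with a summed log2 level of 9.60 to 9.87 in induced, 7.17 to 7.60 in mock-induced arrays and, in parental arrays, 8.37 to 8.88 with doxycycline and 8.58 to 8.90 with vehicle, and their part in the results was not tested. Poly-A spike-in controls averaged 8.06 in induced cells, against 7.74 in mock-induced cells (p = 0.0238, two-sided exact permutation test), and the 3′ minus 5′ difference of the actin probe sets averaged 1.31 in induced cells, against 1.52 in mock-induced cells (p = 0.0476, same exact permutation test). Parental vehicle replicates 3 and 4 stood apart, with the lowest mean correlation with their own group (0.989 and 0.988, against 0.992 or more elsewhere) and poly-A controls at 7.07 and 7.24.

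After induction, cytochrome c and XIAP mRNA fell while CASP9, CASP2 and DIABLO mRNA rose, and the directions within each gene's probe sets did not differ. Induced and mock-induced arrays did not overlap for any of the 16 tested probe sets, a separation that 76.9% of all tested probe sets also showed. At a Bonferroni-adjusted p under 0.01 in limma, 13 of 16 were called, 8 lower and 5 higher, where 44.0% of all tested probe sets were called, 21.8% lower and 22.1% higher. The median log2 fold change was −1.03 over the 16 and 0.12 over all tested probe sets. When arrays were centred on the hybridization controls the split of the called probe sets was 9 lower and 2 higher, and centred on the poly-A controls it was 10 lower and 2 higher. Over all tested probe sets these splits were 4312 lower and 3450 higher, and 5596 lower and 2547 higher. These centrings moved the median of all probe sets to 0.00 and −0.20.

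**Figure D1:**
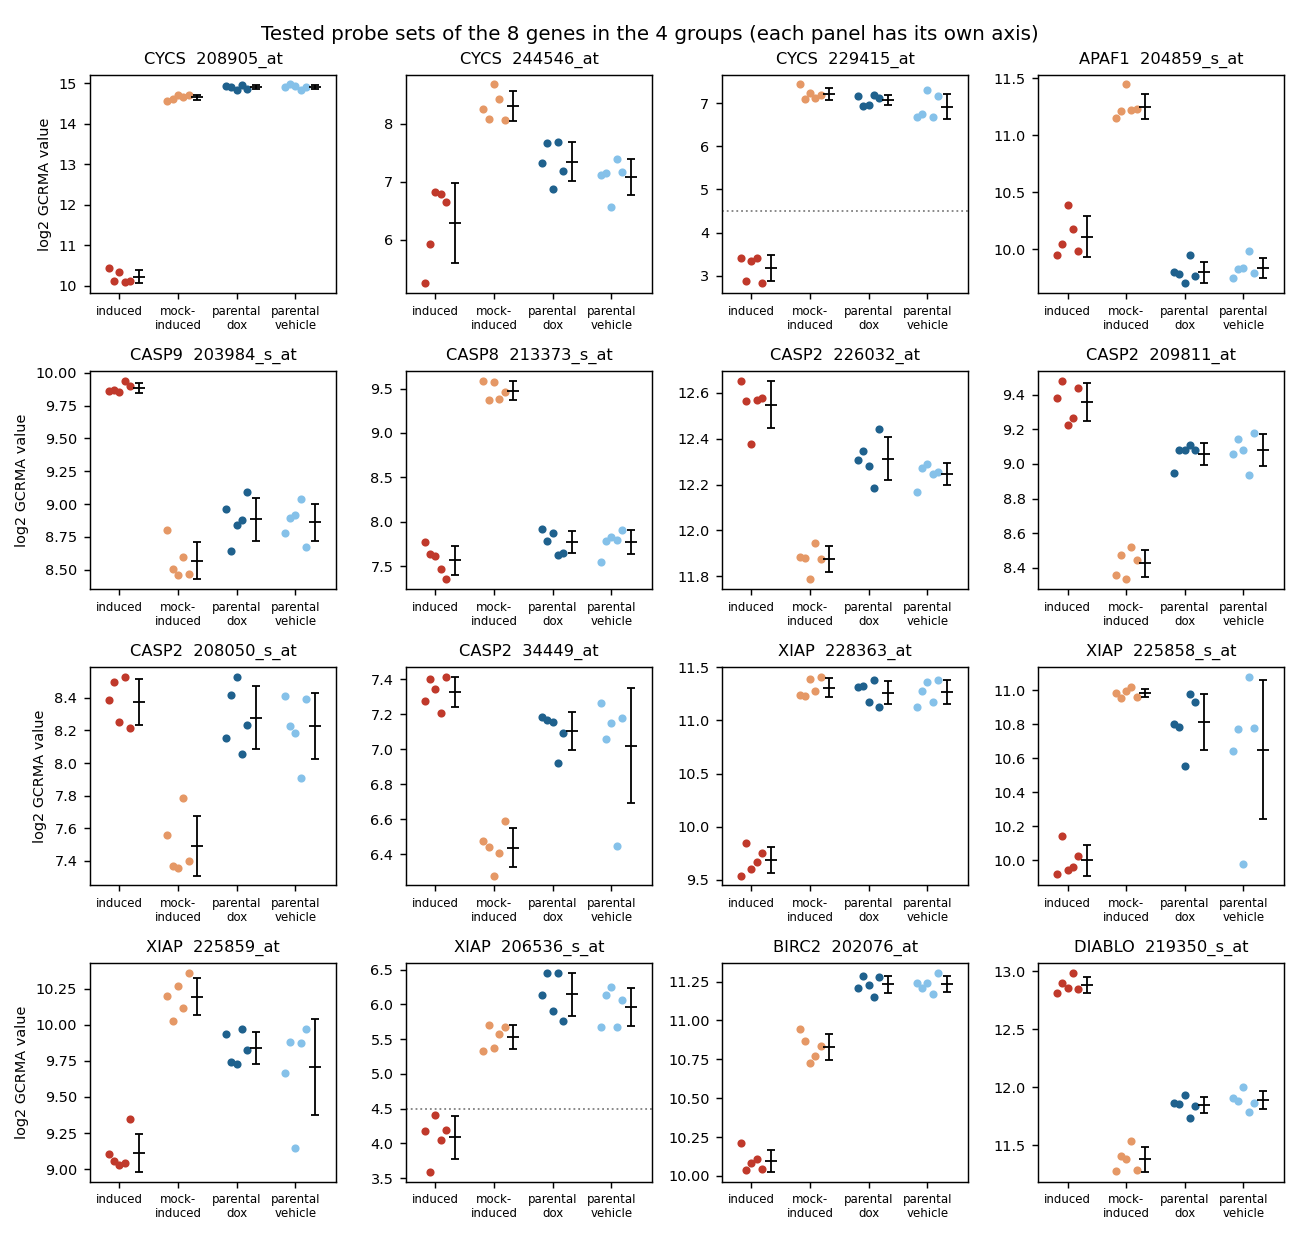
Each panel plots 1 tested probe set of the 8 genes, with the log2 GCRMA value on the vertical axis and the 5 arrays of each group side by side, the EGFP-ZFP36 line on the left (induced, then mock-induced) and parental cells on the right (doxycycline, then vehicle). Points are arrays, the black bar is the group mean with its SD, and the dotted line marks 4.5. The CYCS probe set 208905_at reads 10.10 to 10.46 in induced arrays, and the other 3 groups lie at 14.57 or above.

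CYCS (NCBI gene 54205; chr7:25118656-25125260, GRCh38.p14), which encodes cytochrome c, had the largest decrease of the set. Its brightest probe set, 208905_at, read 10.46, 10.12, 10.35, 10.10 and 10.11 in induced arrays and 14.57, 14.61, 14.70, 14.66 and 14.72 in mock-induced arrays. All 5 induced arrays were low, more than 4 log2 units under the lowest mock-induced array. The log2 fold change was −4.42 (SE 0.078, Bonferroni-adjusted p = 2.80e-10 in limma), 21.4-fold lower, and 30 of the 18639 tested probe sets decreased more. Since the RNA came from pooled cells, fewer cells carrying a transcript and less of it per cell cannot be told apart here or in any result below.

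The second CYCS probe set, 229415_at, gave 3.41, 2.87, 3.33, 3.42 and 2.82 in induced arrays, against 7.43, 7.09, 7.25, 7.12 and 7.20 in mock-induced arrays. Every induced array was under 4.5, so only a bound can be given, and the level was at least 6.58-fold lower after induction (log2 fold change −4.05, SE 0.13, adjusted p = 2.07e-07 in limma). The third, 244546_at, was the most variable of the 16 among induced arrays, which read 5.25, 5.92, 6.82, 6.79 and 6.66, against 8.26, 8.09, 8.68, 8.43 and 8.07 in mock-induced arrays. The groups did not overlap and the log2 fold change was −2.01 (SE 0.29), but the Bonferroni-adjusted p missed 0.01 (0.495 in limma, 4.42e-05 with Benjamini-Hochberg adjustment). CYCS changes therefore ranged over 2.41 log2 units between probe sets. Which transcript end or isoform each probe set reads is not given in the files.

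APAF1 (gene 317; chr12:98645290-98735433), the scaffold of the apoptosome, was read by 204859_s_at at 9.95, 10.05, 10.39, 10.18 and 9.99 in induced arrays and at 11.15, 11.21, 11.45, 11.22 and 11.23 in mock-induced arrays. Induced arrays were the lower group with no overlap, and the log2 fold change was −1.14 (SE 0.090, adjusted p = 0.00176 in limma). The call was lost in 6 of 10 fits with 1 array left out (induced replicate 2, 4 or 5, or mock-induced replicate 2, 4 or 5), which gave log2 fold changes over all 10 fits of −1.21 to −1.09 and adjusted p of 0.000437 to 0.0127. It was also lost when the low values were kept in (0.0436) and when each group had its own spread (0.142).

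The initiator caspases moved in both directions. CASP9 (gene 842; chr1:15491401-15524912), the caspase activated on the apoptosome, read 9.86, 9.87, 9.85, 9.94 and 9.90 in induced arrays and 8.80, 8.51, 8.46, 8.60 and 8.47 in mock-induced arrays on 203984_s_at. Every induced array was higher, and the spread of the induced group was the smallest of any group for this probe set (SD 0.04). The log2 fold change was 1.32 (SE 0.068, adjusted p = 2.37e-05 in limma), and the call was lost only with a separate spread for each group (0.255) among the alternatives run.

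CASP8 (gene 841; chr2:201233463-201287711), the initiator caspase recruited to death receptors through FADD, showed the opposite sign. Its probe set 213373_s_at read 7.78, 7.64, 7.62, 7.47 and 7.35 in induced arrays, against 9.59, 9.37, 9.58, 9.38 and 9.46 in mock-induced arrays. Induced arrays were lower without overlap, 3.75-fold on average (log2 fold change −1.91, SE 0.084, adjusted p = 4.67e-06 in limma).

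CASP2 (gene 835; chr7:143288351-143307696), the caspase activated on the PIDD1 and CRADD platform, was higher in induced arrays at 4 of 4 tested probe sets, 3 of them called. The brightest, 226032_at, read 12.65, 12.57, 12.38, 12.57 and 12.58 in induced arrays and 11.88, 11.88, 11.79, 11.94 and 11.88 in mock-induced arrays. The groups did not overlap and differed by 0.67 on the log2 scale (SE 0.059, adjusted p = 0.00501 in limma). Probe set 209811_at differed by 0.93 (adjusted p = 4.41e-04), 34449_at by 0.89 (0.00103) and 208050_s_at by 0.88 (0.0474, not called). All 3 calls were lost under both centrings on spike-in controls, with a replicate block and with a separate spread for each group, with the direction kept in each. Without the filter on low values the calls of 226032_at (0.0278) and 34449_at (0.0134) were lost. For 226032_at the call was also lost without any 1 array other than induced replicate 3 (log2 fold changes of 0.65 to 0.72, adjusted p of 0.00143 to 0.0348 over the 10 fits).

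XIAP (gene 331; chrX:123859708-123913972), the inhibitor that binds caspases directly, was lower in induced arrays at 4 of 4 tested probe sets, 3 of them called. The brightest, 228363_at, read 9.54, 9.85, 9.60, 9.67 and 9.76 in induced arrays and 11.23, 11.23, 11.39, 11.27 and 11.41 in mock-induced arrays. There was no overlap, and the level was 3.09-fold lower (log2 fold change −1.63, SE 0.069, adjusted p = 3.25e-06 in limma). Probe set 225859_at differed by −1.08 (adjusted p = 0.00104) and 225858_s_at by −0.98 (2.85e-05), and both calls were lost with a separate spread for each group (0.0205 and 0.0868). The first was also lost without the filter on low values (0.0235), and the second with all 20 arrays in 1 model (0.0130) and with a replicate block (0.0205). The dimmest, 206536_s_at, read 3.59 to 4.41 in induced and 5.33 to 5.70 in mock-induced arrays, at least 2.04-fold lower, and did not pass (adjusted p = 0.0145), though it passed without induced replicate 2 (0.00383).

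The study also mapped ZFP36 binding sites in HEK293 cells by crosslinking and immunoprecipitation (PAR-CLIP), and the part of its site table used here places 2 of them in the 3′ UTR of XIAP. They are shown because they are the only sites that this part of the table places in a member gene. Whether they bear on the XIAP change was not tested. The DNA-sense sequence of each is shown 5′ to 3′ with TATT half-sites, the units contacted by a ZFP36 zinc finger as UAUU in RNA, in capitals (hg19, plus strand, chrX:123041221-123041241 for site 1 and chrX:123042866-123042889 for site 2).
XIAP site 1: TATTatccattttttttactg
XIAP site 2: caaattTATTtTATTTATTtaatt
The search on the plus strand covered the nonamer TTATTTATT, the pentamer ATTTA and the half-site TATT, counted with overlaps, so a nonamer also holds a pentamer and half-sites. Site 1 is 21 bases long and holds 1 half-site, 0 pentamers and 0 nonamers. Site 2 is 24 bases long and holds 1 nonamer, 3 pentamers and 3 half-sites. Among the 1026 3′ UTR sites in the part of the table used here, 5.17% hold the nonamer, 42.5% the pentamer and 77.9% the half-site. The other 7 genes had no site in the part of the table used here. The table was held only in part, so whether the rest of it holds sites in them is not known.

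BIRC2 (gene 329; chr11:102347214-102378670) encodes cIAP1, a ubiquitin ligase of the same inhibitor family that acts at tumour necrosis factor receptors. Its probe set 202076_at read 10.21, 10.04, 10.08, 10.11 and 10.05 in induced arrays, against 10.94, 10.87, 10.72, 10.77 and 10.84 in mock-induced arrays. Induced arrays were lower without overlap (log2 fold change −0.73, SE 0.057, adjusted p = 0.00162 in limma). The call was lost without induced replicate 2, 3, 4 or 5 or mock-induced replicate 2 or 5, with log2 fold changes of −0.76 to −0.70 and adjusted p of 0.00297 to 0.0127 over the 10 fits. It was also lost with a replicate block (0.0677) and with a separate spread for each group (0.0118).

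DIABLO (gene 56616; chr12:122207662-122227456), the antagonist of these inhibitors, had the largest increase of the set. It read 12.81, 12.90, 12.85, 12.99 and 12.84 in induced arrays and 11.28, 11.41, 11.38, 11.53 and 11.29 in mock-induced arrays on 219350_s_at. Induced arrays were higher by more than 1 log2 unit at every pairing, with a log2 fold change of 1.50 (SE 0.061, adjusted p = 2.08e-06 in limma), 2.83-fold. Both inhibitors of the set were thus lower and their antagonist higher after induction.

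The 6 untested probe sets gave no usable level. Those of APAF1 (211554_s_at), CASP9 (240437_at) and CASP8 (1553306_at) lay between 2.19 and 2.76 on all 20 arrays. CASP8 207686_s_at reached 2.33 to 3.34 in mock-induced arrays and 2.25 to 2.30 elsewhere, CASP2 211140_s_at lay at 2.47 to 3.79 and XIAP 206537_at at 3.77 to 4.89.

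The parental cells asked what doxycycline did without the transgene. None of the 16 probe sets was called in parental doxycycline against parental vehicle arrays, and none had an unadjusted p under 0.05. Across all tested probe sets 0.0% were called by limma and 2.22% had an unadjusted p under 0.05. CYCS 208905_at read 14.92, 14.90, 14.84, 14.96 and 14.86 in parental doxycycline arrays and 14.91, 14.97, 14.94, 14.84 and 14.91 in parental vehicle arrays. The groups overlapped, with a log2 difference of −0.02 and a 95% confidence interval of −0.12 to 0.08. The highest upper limit of the 16 belonged to CYCS 244546_at, whose interval ran from −0.15 to 0.68. For DIABLO the interval was −0.17 to 0.08, for CASP9 −0.18 to 0.23, for CASP8 −0.19 to 0.18 and for BIRC2 −0.11 to 0.10.

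**Figure D2:**
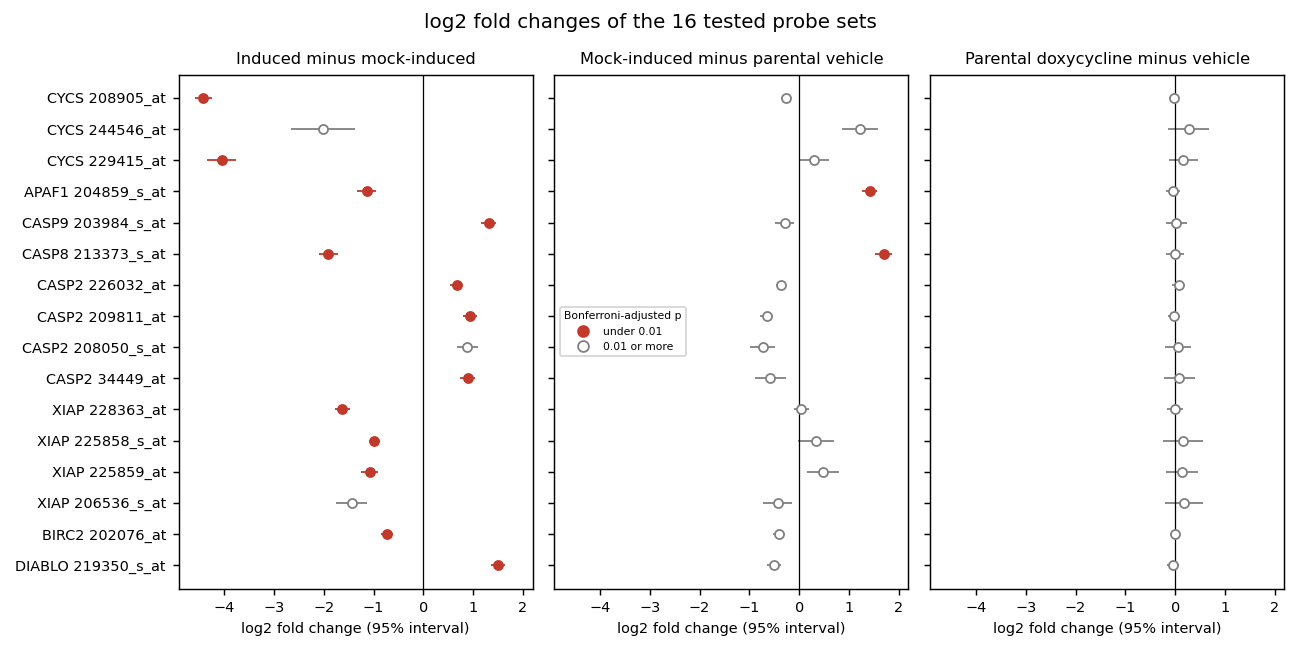
log2 fold change (horizontal axis) with its 95% confidence interval for each of the 16 tested probe sets, in induced minus mock-induced, mock-induced minus parental vehicle and parental doxycycline minus parental vehicle arrays. Red filled symbols mark Bonferroni-adjusted p-values under 0.01 (13, 2 and 0 probe sets), and the parental differences lie between −0.04 and 0.27. For CYCS 229415_at and XIAP 206536_s_at, all under 4.5 in induced arrays, the induced difference is a fitted value and not a size.

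The test of the doxycycline difference in the EGFP-ZFP36 line minus that in parental cells, an interaction over all 20 arrays, passed for 10 of the 16 probe sets (6 lower, 4 higher), where 39.7% of all tested did. It was −4.41 for CYCS 208905_at (SE 0.091, adjusted p = 4.96e-17 in limma). CYCS 229415_at was also called as lower, with no size given because its induced arrays all lay under 4.5. XIAP 228363_at (−1.62), CASP8 (−1.90), APAF1 (−1.10) and BIRC2 (−0.73) were also called as lower, and DIABLO (1.54), CASP9 (1.29) and CASP2 209811_at and 226032_at (0.95 and 0.61) as higher. XIAP 225859_at (−1.21, adjusted p = 0.0172) and 225858_s_at (−1.15, 0.177) were not called, and parental vehicle replicate 3 read 9.15 and 9.98 on them, under all other parental arrays. Without parental vehicle replicates 3 and 4, 12 of 16 were called, and without replicate 3 alone both XIAP probe sets passed (0.000619 for 225859_at and 0.00314 for 225858_s_at), and 225859_at also passed without parental vehicle replicate 5. CASP2 34449_at passed without parental vehicle replicate 4 (0.000240) and XIAP 206536_s_at without parental doxycycline replicate 5 (0.00847). The CASP2 226032_at call (adjusted p = 0.00844) was lost when any 1 array other than induced replicate 3 or parental doxycycline replicate 5 was left out. Centred on hybridization controls the calls were 8 lower and 1 higher, and on poly-A controls 4 lower and 0 higher. Over all tested probe sets they were 3492 lower and 1342 higher, and 2251 lower and 963 higher. Hybridization centring lost BIRC2 (adjusted p = 0.304), CASP9 (0.0142) and both CASP2 calls. Poly-A centring lost XIAP 228363_at (0.0327), DIABLO (0.117), APAF1, BIRC2, CASP9 and both CASP2 calls. Another CYCS probe set passed under both centrings, and XIAP 225859_at and 225858_s_at under the first. CASP9 was also lost with a replicate block (0.0186) and APAF1 with separate spreads (0.0103). CYCS 208905_at, CYCS 229415_at and CASP8 kept their calls in all of these.

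Mock-induced cells of the transgenic line also differed from parental vehicle cells. The study's methods give the EGFP-ZFP36 and parental cells different dilutions at passage and different growth times before treatment. Cell line and culture therefore cannot be told apart in any comparison between them. Mock-induced against parental vehicle arrays gave 2 called probe sets of 16, both higher (17.1% of all tested probe sets were called, 6.88% lower and 10.2% higher), and 10 of 16 did not overlap, against 58.5% of all. Both called were genes that fell after induction: APAF1 and CASP8. CASP8 213373_s_at read 9.59, 9.37, 9.58, 9.38 and 9.46 in mock-induced arrays and 7.54, 7.79, 7.84, 7.79 and 7.91 in parental vehicle arrays, with no overlap and a log2 fold change of 1.70 (SE 0.078, adjusted p = 9.85e-06 in limma). APAF1 204859_s_at read 11.15 to 11.45 in mock-induced and 9.75 to 9.98 in parental vehicle arrays, a log2 fold change of 1.41 (SE 0.067, adjusted p = 1.52e-05). The CASP8 call was lost with a replicate block (0.0133) and the APAF1 call when arrays were centred on poly-A controls (0.0128). CASP2 lay in the other direction at 4 of 4 probe sets (−0.73 to −0.37), 209811_at with an adjusted p of 0.0104, or 0.00672 without parental vehicle replicate 4. DIABLO (−0.51, adjusted p = 0.167) and BIRC2 (−0.40, 0.309) did not pass. CYCS 208905_at read 0.26 lower in mock-induced arrays (adjusted p = 1, 0.000548 with Benjamini-Hochberg adjustment), and 244546_at differed by 1.23 (adjusted p = 0.286). The other CYCS probe set, 229415_at, differed by 0.30 with overlap, so the CYCS probe sets did not share a direction. XIAP 228363_at differed by 0.04, with a 95% confidence interval of −0.10 to 0.19. Its other probe sets went both ways and were not called. They differed by 0.49 at 225859_at, 0.33 at 225858_s_at and −0.44 at 206536_s_at. With Benjamini-Hochberg adjustment in limma, p was 0.0118 for 225859_at and 0.0122 for 206536_s_at.

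Because the mock-induced arrays enter both comparisons above, induced arrays were also set against parental doxycycline arrays, which share the drug but not the line; this comparison was added after the values were seen. It called 7 of 16 probe sets, 5 lower and 2 higher (41.3% of all tested probe sets), and 13 of 16 did not overlap (75.1% of all). Centred on hybridization controls the calls were 7 lower and 0 higher, and on poly-A controls 6 lower and 1 higher. Over all tested probe sets they were 4521 lower and 2821 higher, and 4094 lower and 4141 higher. CYCS 208905_at differed by −4.67 (SE 0.079, adjusted p = 1.28e-10 in limma), and 229415_at, with every induced array under 4.5, was at least 5.98-fold lower (1.92e-07, or 0.0148 and no longer called with a separate spread for each group). XIAP 228363_at differed by −1.58 (9.38e-06) and 206536_s_at by −2.06 (0.00294, at least 3.13-fold lower). BIRC2 read 10.04 to 10.21 in induced and 11.15 to 11.29 in parental doxycycline arrays, a log2 fold change of −1.13 (1.11e-05). DIABLO was 1.03 higher (4.43e-05) and CASP9 1.00 higher (0.00140). The CASP9 call was lost without induced replicate 2, 4 or 5 or parental doxycycline replicate 3 (adjusted p up to 0.0106 in those fits), and the XIAP 206536_s_at call without induced replicate 1, 4 or 5 or parental doxycycline replicate 1, 2, 3 or 4 (up to 0.0231). CASP9 also lost its call with a separate spread for each group (adjusted p = 1), on hybridization (0.168) and poly-A controls (0.0222), without the filter (0.0205) and with a replicate block (0.0809), and XIAP 206536_s_at without the filter (0.126), with separate spreads (0.106) and with the block (0.310). DIABLO lost it with the block (0.0382) and on hybridization controls (0.0174), and BIRC2 with the block (0.0144).

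The APAF1 and CASP8 calls did not stand in this comparison. Nor did those of XIAP 225858_s_at (−0.81, adjusted p = 0.0231 in limma) and 225859_at (−0.73, 0.0383). Both were lower without overlap and passed when centred on hybridization controls. CYCS 244546_at differed by −1.06 and was not called. CASP8 read 7.35 to 7.78 in induced and 7.63 to 7.92 in parental doxycycline arrays, overlapping, with a log2 difference of −0.20 and a 95% confidence interval from −0.40 to just under 0 (adjusted p = 1). APAF1 was on the other side, at 9.95 to 10.39 in induced and 9.70 to 9.95 in parental doxycycline arrays, 0.31 higher (adjusted p = 1, 0.00655 with Benjamini-Hochberg adjustment). CASP2 differed by 0.10 to 0.30 over its 4 probe sets and none was called. In the order of group means, CASP8 thus had mock-induced cells highest and the other 3 groups overlapping neighbour by neighbour. DIABLO ran induced, parental vehicle, parental doxycycline and mock-induced from high to low, with only the parental groups overlapping as neighbours, and CYCS 208905_at ran parental vehicle, parental doxycycline, mock-induced and induced, again with only the parental pair overlapping.

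Genes with the most similar pattern were sought by Pearson's r over the 20 arrays, among 10834 genes each at its brightest probe set. These values describe a pattern that 4 groups of replicates share and carry no test. For CYCS they were LRRC58, HIGD1A and CBR4 (r = 0.999 each) and LIN7C and TMEM38B (0.998 each). The closest gene was ZMYND11 for APAF1 (0.983), CRTC3 for CASP9 (0.983), KCNK1 for CASP8 (0.988) and CTCF for CASP2 (0.976). It was MAN1A1 for XIAP (0.994), HSBP1 for BIRC2 (0.996) and SNX12 for DIABLO (0.997).

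Neighbouring genes of the pathway were read from 7 lists, each gene at its brightest probe set. Of 56 tested genes 15 fell, 15 rose and 26 did not pass after induction, where 21.5% of all 10834 genes fell and 26.5% rose at the same threshold and the median of all was 0.20. None of the 56 was called in parental doxycycline against vehicle arrays. Among genes for cytochrome c assembly and release, 5 of 13 fell, 4 rose and 4 did not pass, with a median of −0.36. VDAC2, an outer membrane channel, fell by 2.16 and BID, a BH3-only activator cleaved by caspase-8, fell by 1.80, while the pore-forming proteins BAK1 and BAX rose by 1.30 and 0.89.

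Death receptors and their adaptors were evenly split, with 4 of 12 lower, 4 higher and 4 not passing (median 0.12). CRADD, the adaptor that recruits caspase-2, had the largest decrease (−3.41, adjusted p = 0.00233 in limma), with means of 4.65 in induced and 8.06 in mock-induced arrays. The death receptor FAS differed by −1.60, while the tumour necrosis factor receptor TNFRSF1A (2.02) and the Fas-associated factor FAF1 (1.31) were higher. Of 4 other inhibitor of apoptosis genes (median 0.48), BIRC6 fell by 1.09, BIRC5, which encodes survivin, rose by 0.86 and 2 did not pass. Of 4 other antagonists of the inhibitors or mitochondrial death factors (median 0.66), AIFM1 rose by 1.03 and GSPT1 by 0.65 and 2 did not pass, though 2 of the 4 other GSPT1 probe sets were called in the opposite direction.

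Of 9 modulators of the apoptosome (median 0.25), the mitochondrial co-chaperone HSPE1 fell by 1.20, AVEN, which binds APAF1, rose by 1.56 and 7 did not pass. Of 2 other caspases tested, CASP6, an executioner, fell by 1.15, and CASP10 lay under 4.5 in both induced and mock-induced arrays. Caspase substrates gave 3 lower, 3 higher and 6 not passing of 12 (median −0.28), with the kinase PAK2 at −2.95 and the lamin gene LMNB1 at −1.65, and gelsolin (GSN, 1.48) and spectrin (SPTAN1, 1.26) higher.

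**Figure D3:**
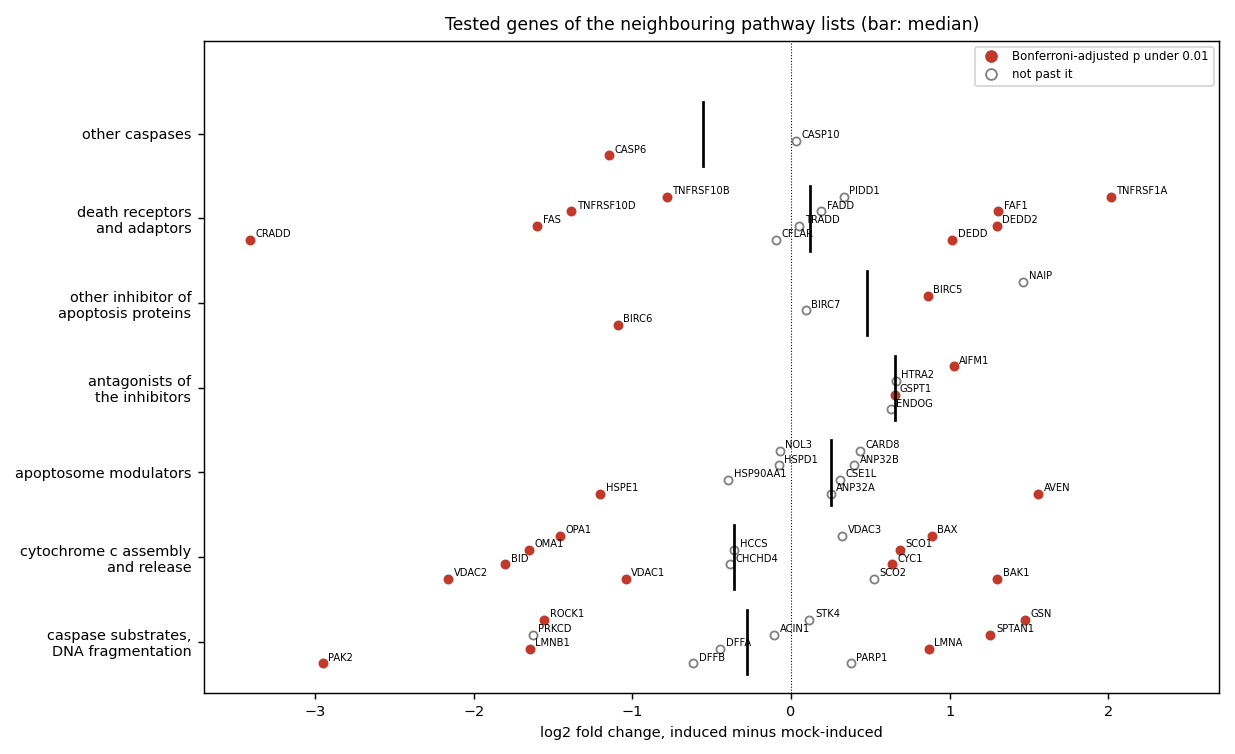
log2 fold change (horizontal axis) in induced minus mock-induced arrays of the 56 tested genes in the 7 neighbouring lists, 1 point per gene at its brightest probe set, with the median of each list as a black bar. Red filled symbols mark Bonferroni-adjusted p-values under 0.01, and they run in both directions, from CRADD at −3.41 to TNFRSF1A at 2.02.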

How the data were processed

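The deposited values are log2 expression values per probe set that the authors made with the GCRMA method, whose version neither labels nor methods state, for 50441 probe sets on 20 arrays, between 2.19 and 16.6. Sample labels gave every group. Genes were assigned through GEO's annotation of the array, and GRCh38.p14 coordinates came from the RefSeq gene table. No raw intensities were used, so background correction and normalization stayed as deposited, and the number of arrays limits the precision.

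Probe sets naming 1 gene with a group mean above 4.5 in at least 1 group entered lmFit and eBayes of limma 3.58.1 (R 4.3.3), on the arrays of the 2 groups compared, or all 20 for the interaction, and called at a Bonferroni-adjusted p under 0.01. Filter and threshold follow the study's methods. Where every array of the lower group lay at or under 4.5, the fold is a bound from 4.5. Exact permutation tests of 5 against 5 arrays cannot go below 0.00794. The fit was tested on simulated data. Python 3.11.15 made the tables and figures.

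The members and lists were chosen with earlier results of these data known. Named list genes are up to 2 called genes furthest in each direction per list, and pattern neighbours are the first 5 for CYCS and the first 1 for other members; CASP10, GSPT1's other probe sets and the genes of the closing observations were named after their values were seen. Marker lists covered HEK293, blood, endothelial and fibroblast cells. Alternatives were other adjustments, spike-in centrings, filters, probe set choices, spread models, a replicate block and arrays left out.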

Additional observations from a re-analysis of the deposited data

Results flagged for a closer look

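In 4 of 64 groups of 5 arrays (6.25%) 1 array lay far from the rest of its group, and chance gives about 1 in 20. Mock-induced replicate 3 read 11.45 on APAF1 204859_s_at, above the others at 11.15 to 11.23. Induced replicate 5 read 9.34 on XIAP 225859_at, above the others at 9.03 to 9.11. Parental doxycycline replicate 1 read 8.95 on CASP2 209811_at, below the others at 9.08 to 9.11. Replicates 2, 3 and 5 of that group hold the same value (9.0799), so the rate of 1 in 20 need not apply to it. Parental vehicle replicate 4 read 6.45 on CASP2 34449_at, below the others at 7.06 to 7.26.

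The doxycycline difference in the EGFP-ZFP36 line differed from that in parental cells for 10 probe sets by the interaction test in limma. It was −4.41 for CYCS 208905_at, −1.90 for CASP8, −1.62 for XIAP 228363_at, −1.10 for APAF1 and −0.73 for BIRC2. For CYCS 229415_at the fitted value was −4.21, which is not a size, since its induced arrays all lay under 4.5. It was 1.54 for DIABLO, 1.29 for CASP9, and 0.95 and 0.61 for CASP2 209811_at and 226032_at.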

How the results depend on the processing

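No called difference of a probe set changed direction under any alternative run. After induction, 13 of 16 probe sets were called (8198 of all 18639). With 1 probe set per gene it was 8 of 8 (5623 of all 10834). When probe sets with the suffix _s_at or _x_at were left out it was 8 of 9 (5445 of all 12157). A separate spread for each group gave 5 (3731) and a replicate block 8 (4352). A Benjamini-Hochberg threshold of 0.05 gave 15933 of all. Both CYCS calls, CASP8, XIAP 228363_at and DIABLO passed under every one of these settings that included them. Mock-induced against parental vehicle gave 2 calls (3185 of all), against 13 with Benjamini-Hochberg (13172), 1 centred on poly-A controls (1808), 5 with all 20 arrays in 1 model (5354) and 1 with a replicate block (921). Without those probe set types 1 of 9 was called (2338 of all 12157), CASP2 209811_at as lower (adjusted p = 0.00680 in limma). The APAF1 and CASP8 probe sets called in the main fit are of those types and were left out there. Without the filter 2064 of all were called, and with separate spreads 1138. The interaction gave 10 (7402), against 16 with Benjamini-Hochberg (14458), 4 on poly-A controls (3214) and 6 of 9 without those probe set types (5060 of all 12157). Hybridization centring gave 4834 and separate spreads 4676 of all. Induced against parental doxycycline gave 7 (7694), against 14 with Benjamini-Hochberg (15665) and 4 of 9 without those probe set types (5205 of all 12157). Separate spreads gave 4 (3499) and a replicate block 3 (4011). The cause was not tested, beyond the fewer probe sets or arrays that some settings use.

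Leaving out 1 array at a time gave 10 to 12 calls after induction, 2 to 3 for mock-induced against parental vehicle, 9 to 11 for the interaction, 5 to 7 for induced against parental doxycycline and 0 to 0 for parental doxycycline. Without parental vehicle replicates 3 and 4, chosen after seeing the data, the counts were 2, 12 and 0 for the 3 comparisons that use them. Same-numbered induced and mock-induced arrays deviated together with r of 0.01 to 0.21, and 1 of 5 matched its own number best, so the numbers were not taken as pairs. The study's methods describe the parental cultures as treated and untreated pairs, but not that the numbers mark them. They also describe the EGFP-ZFP36 experiment, with both treatments, as repeated on 5 separate days, again without saying that the numbers mark the days. Same-numbered parental arrays gave r of −0.19 to 0.38, and 2 of 5 matched best.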

Other observations

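Before induction, 8 of the 56 neighbouring genes differed between mock-induced and parental vehicle arrays at a Bonferroni-adjusted p under 0.01 in limma, 3 higher and 5 lower. That is 14.3% of them, against 20.1% of all 10834 genes at their brightest probe set. From the list of death receptors and their adaptors, FAS (1.97), TNFRSF10D (1.37) and TNFRSF10B (1.24) were higher in mock-induced arrays on the log2 scale. All 3 fell after induction (by 1.60, 1.38 and 0.78). Mock-induced arrays thus had the highest mean of the 4 groups for these 3, and both comparisons share those arrays. The same order held for CASP8, APAF1, XIAP 228363_at, 225858_s_at and 225859_at, and CYCS 229415_at and 244546_at. At XIAP 228363_at and 225858_s_at and CYCS 229415_at, mock-induced arrays overlapped the next group. FAS averaged 7.93 in induced and 9.53 in mock-induced arrays, and in parental arrays 7.49 with doxycycline and 7.56 with vehicle.

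HCCS, the enzyme that attaches haem to cytochrome c, had a log2 fold change of −2.42 in mock-induced against parental vehicle arrays (adjusted p = 8.93e-08), with means of 8.84 in induced, 9.20 in mock-induced and 11.6 in both parental groups. Its difference after induction was −0.36 and did not pass (adjusted p = 1). CYC1, the cytochrome of respiratory complex III that passes electrons to cytochrome c, differed by −0.79 in the same comparison and rose by 0.64 after induction. FADD (−0.74), BIRC5 (−0.72) and the kinase ROCK1 (−0.85) were the other 3 that were lower in mock-induced arrays.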
